A study of Mus musculus with 10 samples.

Results

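The genes described here encode enzymes, and 1 receptor, of 4 metabolic routes by which a tumor can restrain lymphocytes. They are Arg1 and Nos2, which consume arginine, Ido1, which degrades tryptophan, Entpd1, Nt5e and the receptor Adora2b of the adenosine route, and Ptgs1, Ptgs2, Ptges and Hpgd of the prostaglandin route. The 10 members were taken by gene identifier from a count table of 53379 genes, and all 10 were found. Gene positions are those of GENCODE M21 on GRCm38. An expression filter kept 9 of the 10 among 14337 genes tested, and Hpgd lay below it.

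T cells need arginine and tryptophan to proliferate, and cells that degrade these amino acids starve T cells of them or expose them to products such as kynurenine. Extracellular ATP is cut to AMP by the ectoenzyme CD39, the product of Entpd1, and AMP to adenosine by CD73, the product of Nt5e. Adenosine then signals through receptors such as the one encoded by Adora2b. Cyclooxygenases, encoded by Ptgs1 and Ptgs2, turn arachidonic acid into prostaglandin H, which the synthase encoded by Ptges converts to prostaglandin E. The dehydrogenase encoded by Hpgd inactivates prostaglandins.

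RNA was sequenced from cells of MC38, a single mouse colon carcinoma line, that had grown for 21 days in C57BL/6J mice and been sorted as positive for the dTomato fluorescent protein and negative for the leukocyte protein CD45. There were 5 mice fed a control diet and 5 fed a high-fat diet, with 1 library per mouse, and both groups carried the same implanted line. The sources used here give neither age nor sex of the animals, nor what the diets held or for how long they were fed. The comparison asks whether the host's diet goes with a different level of these transcripts in the sorted cells.

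Libraries held between 16513388 and 18653705 counts. Control libraries were the larger ones on average (exact two-sided permutation p = 0.0317). Levels are given as CPM, the gene's count scaled to the library's TMM-adjusted size. A library with 0 counts of a gene can still hide up to 3, equal to 0.159 to 0.183 CPM depending on the library. As a check of the label, the cells being called colon carcinoma, 8 epithelial markers summed to between 1.22 and 7.001 CPM in all 10 libraries, with Epcam at 16 counts in total. The mesenchymal genes of the fibroblast and pericyte list summed to between 1254 and 2201 CPM. The defining macrophage genes were present in a sort that gated out CD45: 15 macrophage markers summed to between 68.7 and 477 CPM in control libraries and between 33.6 and 77.7 CPM in high-fat libraries. All 15 had lower means on the high-fat diet at an edgeR unadjusted p under 0.05 (6.62% of all tested genes). None passed the adjusted threshold (edgeR). The 10 pan-leukocyte markers, Ptprc among them, summed to between 18.0 and 208 CPM in control and between 14.2 and 55.8 CPM in high-fat libraries. Control mice 3 and 4 stood highest on both lists. Neutrophil and adipocyte markers summed to at most 2.27 and 0.183 CPM in any library. Dendritic cell markers summed to between 8.81 and 28.3 CPM, T and NK cell markers to between 0.285 and 13.6 CPM, endothelial markers to between 21.8 and 36.9 CPM and mast cell markers to between 1.43 and 8.24 CPM. Single genes weighed most in several of these sums. Zbtb46 averaged 9.894 CPM in control and 9.365 CPM in high-fat mice. Itgax averaged 4.85 and 2.01 CPM, whereas Flt3, Xcr1, Clec9a and Ccr7 averaged at most 0.729 CPM. Of the endothelial markers, Pecam1 had the highest mean, at 17.2 and 18.2 CPM. Hdc had the highest of the mast cell markers, at 1.65 and 2.34 CPM. Dcn had that of the fibroblast and pericyte list, at 967 and 1036 CPM.

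The most abundant members were the prostaglandin pair Ptges and Ptgs2 and the nitric oxide synthase Nos2. As a level per kilobase of annotated exon in control mice, Ptges stood at 62.9 ± 6.95 CPM per kilobase (SD, n = 5), Ptgs2 at 50.3 ± 8.79 and Nos2 at 27.8 ± 4.48. Ptges was above Ptgs2 in every one of the 10 libraries, although the ranges of the 2 genes overlapped in control mice and did not in high-fat mice. Ptgs2 and Nos2 did not overlap in control mice and overlapped in high-fat mice.

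A second tier lay far below these genes. Arg1 followed in control mice at 4.39 ± 2.71 CPM per kilobase, then Adora2b at 1.19 ± 0.407, Ido1 at 1.00 ± 0.188, Entpd1 at 0.704 ± 0.621, Ptgs1 at 0.485 ± 0.280 and Nt5e at 0.203 ± 0.0523. Each neighbouring pair from Arg1 to Nt5e in that order overlapped between control libraries. On the high-fat diet the order below Nos2 began with Ido1 at 1.87 ± 0.958 CPM per kilobase and Adora2b at 1.43 ± 0.378, and Arg1, at 0.594 ± 0.244, came after both. Every high-fat library had less Arg1 than Adora2b per kilobase, and every control library had more.

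**Figure D1:**
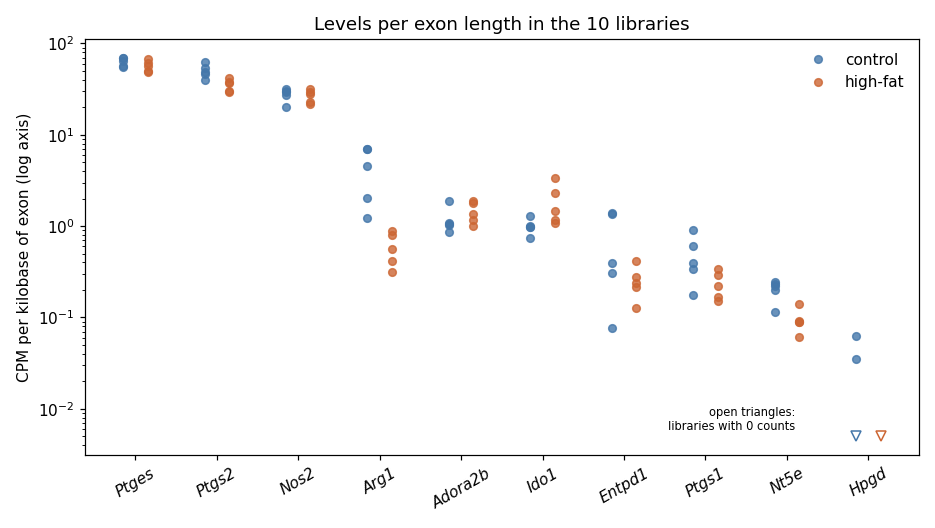
Level of each gene in CPM per kilobase of exon (vertical log axis) in the 5 control and 5 high-fat libraries, 1 point per library, with genes ordered by their control mean. Ptges, Ptgs2 and Nos2 form the upper tier, Arg1 takes a different place under each diet, and Hpgd has counts in 2 control libraries only (open triangles stand for libraries at 0 and carry no scale).

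In the diet comparison 0 of the 9 tested members passed the adjusted threshold of 0.05 in edgeR's quasi-likelihood test, where 0.0628% of all tested genes passed. At an unadjusted p under 0.05 there were 6, of which 5 had lower and 1 had higher means on the high-fat diet, against 12.1% of all tested genes. The median log2 change (high-fat minus control) of the 9 was -0.51, against 0.01 over all tested genes. Of the 9 changes 7 were negative, where 51.4% were positive over all tested genes. DESeq2 called 3 members, Arg1, Nt5e and Ptgs2, all lower, where it called 1.29% of genes lower and 0.547% higher. Plain limma-voom called 0 members, with 4 at an unadjusted p under 0.05, and called 0.0139% of genes lower and 0.0209% higher. Limma-voom with sample weights, chosen after the data were seen, called the same 3 as DESeq2, where it called 3.06% of genes lower and 2.60% higher.

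**Figure D2:**
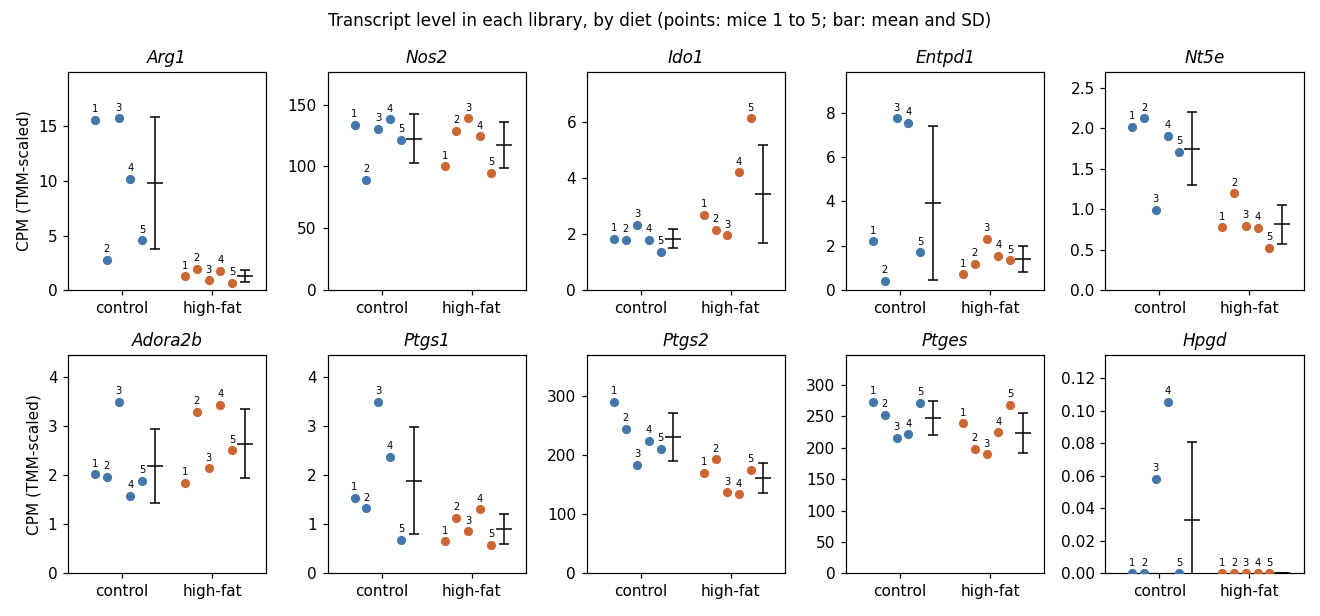
Transcript level of the 10 genes in TMM-scaled CPM (vertical axes from 0, one scale per gene) in each control and high-fat library, with mouse numbers above the points and the mean and SD of 5 mice beside them. Arg1 is the only one of the 9 tested genes whose diets do not overlap; Ido1 is highest in high-fat mice 4 and 5.

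Arg1 (ENSMUSG00000019987.9, chr10:24915221-24927484, minus strand) encodes arginase, which splits arginine into ornithine and urea and is abundant in some tumor macrophages. Its level was 15.6, 2.76, 15.7, 10.2 and 4.56 CPM in control mice 1 to 5 and 1.25, 1.97, 0.916, 1.77 and 0.6998 CPM in high-fat mice 1 to 5. All 5 high-fat libraries lay below all 5 control libraries, with the closest pair being control mouse 2 and high-fat mouse 2. Groups failed to overlap in that direction for 1.10% of all tested genes. The means were 9.77 ± 6.05 CPM in control and 1.32 ± 0.544 CPM in high-fat mice (SD, n = 5 each), a 7.39-fold lower mean on the high-fat diet. The log2 change was -2.88 (SE 0.51), with an edgeR adjusted p of 0.102 and rank 18 by p among all tested genes. Counts were between 12 and 270 per library. Without control mouse 2, the lowest control, the edgeR adjusted p was 0.0358, in a fit that called 0.0207% of all genes lower and 0.00690% higher. Leaving out the lowest control raises the control mean by itself, so this value is no separate support. With any other single mouse left out, the edgeR adjusted p of Arg1 was between 0.067 and 0.268.

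Arg1 and the macrophage markers both had lower means on the high-fat diet. Macrophage markers summed to 68.7 and 82.2 CPM in control mice 2 and 5, close to the 77.7 CPM of high-fat mouse 2, and Arg1 in these 3 libraries was at 2.76, 4.56 and 1.97 CPM. Per 100 CPM of macrophage markers, Arg1 stood between 2.14 and 8.73 CPM in control and between 1.22 and 3.72 CPM in high-fat libraries, so that the diets overlapped on this ratio. With the mean macrophage level as a covariate beside diet, the log2 change of Arg1 was -1.55 (SE 0.51, edgeR adjusted p = 0.168). With the pan-leukocyte level in its place it was -2.28 (SE 0.41, edgeR adjusted p = 0.0127), and without control mice 3 and 4 it was -2.52 (SE 0.51, edgeR adjusted p = 0.0353). In sorted bulk RNA, fewer cells of a type and less transcript per cell cannot be told apart. The 3 tested genes whose pattern over the 10 libraries lay nearest to that of Arg1 were Msr1, a macrophage scavenger receptor, Magi3 and Dhrs3. Their root mean square distances between standardised log2 CPM were 0.261, 0.325 and 0.340, against a median of 1.35 over 13452 genes. They were picked as the smallest distances, so lying below the median is no test. Standardising removes the size of a change. Msr1 averaged 5.09 CPM in control and 0.571 CPM in high-fat mice, Magi3 30.3 and 26.9 CPM, and Dhrs3 2.02 and 0.691 CPM.

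**Figure D3:**
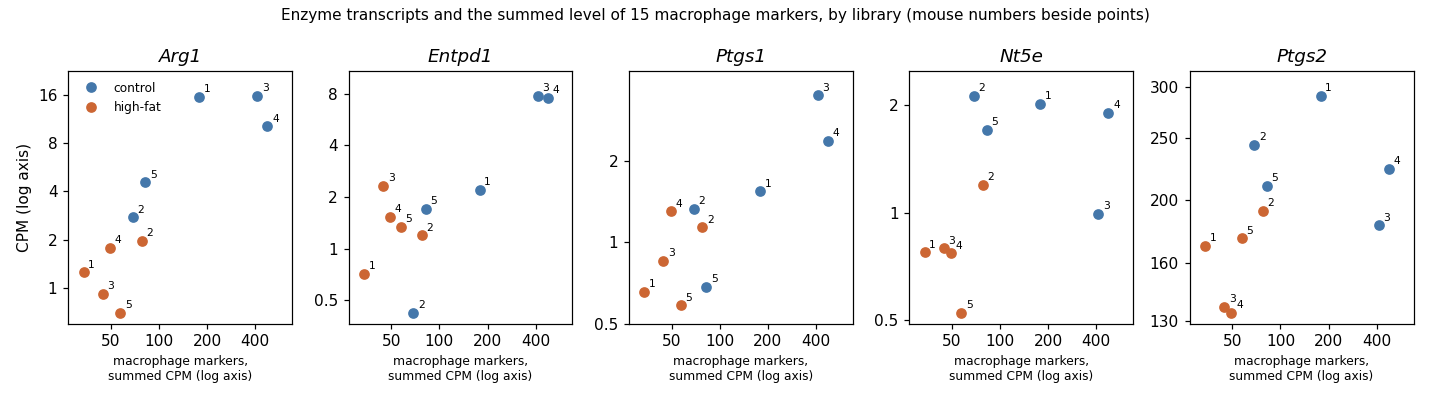
Level of 5 genes in CPM against the summed CPM of 15 macrophage markers in each library (both axes log), with mouse numbers beside the points. Control mice 3 and 4 lie at the right with the highest Entpd1 and Ptgs1, whereas Ptgs2 is highest in control mouse 1 and Nt5e in control mouse 2.

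Nos2 (ENSMUSG00000020826.8, chr11:78920787-78960254, plus strand) encodes the inducible nitric oxide synthase, which turns arginine into nitric oxide and citrulline. Its level was 134, 89.0, 130, 138 and 121 CPM in control mice 1 to 5 and 100, 129, 139, 124 and 94.9 CPM in high-fat mice 1 to 5. The diets overlapped almost fully, at 123 ± 19.8 and 117 ± 19.0 CPM (SD, n = 5). The log2 change was -0.06 (SE 0.13, edgeR adjusted p = 0.903). In control mice 2, 5, 1, 3 and 4 macrophage markers summed to 68.7, 82.2, 179, 412 and 477 CPM. Nos2 in these libraries was at 89.0, 121, 134, 130 and 138 CPM. High-fat libraries, with marker sums between 33.6 and 77.7 CPM, held between 94.9 and 139 CPM of Nos2. How Nos2 goes with these markers was not tested. Its nearest genes in pattern were Ccr2, H2-Q6 and H2-Q4, at distances between 0.323 and 0.389.

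Among the other genes of arginine transport and use, 11 were tested and 0 passed the adjusted threshold in edgeR, DESeq2 or plain limma-voom. At an unadjusted p under 0.05 there were 3, all with lower means on the high-fat diet (6.62% of all tested genes), and the median log2 change was -0.26. Slc7a2, a cationic amino acid transporter that supplies arginine, averaged 14.7 ± 8.05 CPM in controls against 4.07 ± 4.06 CPM under high-fat feeding (edgeR adjusted p = 0.267). Slc7a1, the general transporter of arginine and lysine, was at 364 ± 81.6 and 275 ± 63.1 CPM. Gch1, which starts the synthesis of the nitric oxide synthase cofactor tetrahydrobiopterin, was at 1.16 ± 0.236 and 0.740 ± 0.302 CPM. Limma-voom with sample weights called Slc7a1, Slc7a2 and Odc1, the ornithine decarboxylase gene, as lower (3.06% of all genes). The second arginase gene, Arg2, had 15 counts over all 10 libraries and was not tested, and Ass1, which rebuilds arginine from citrulline, had 99. Oat, which converts ornithine, was measured at 73.4 ± 3.59 CPM under the control diet and 76.7 ± 6.63 CPM under the high-fat diet.

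Ido1 (ENSMUSG00000031551.12, chr8:24584136-24597009, minus strand) encodes indoleamine dioxygenase, which opens the tryptophan ring at the head of the kynurenine route and is a known interferon gamma target. It was the only member with an edgeR unadjusted p under 0.05 and a higher mean on the high-fat diet (5.45% of all tested genes). Its level was 1.84, 1.80, 2.33, 1.80 and 1.37 CPM in control mice 1 to 5 and 2.68, 2.15, 1.95, 4.20 and 6.12 CPM in high-fat mice 1 to 5. High-fat mice 1, 4 and 5 lay above all controls, and high-fat mice 2 and 3 lay within the control range. The means were 1.83 ± 0.342 and 3.42 ± 1.75 CPM. The log2 change came to 0.90 (SE 0.30; edgeR, adjusted p = 0.262). Each library held between 24 and 105 counts of Ido1. Without high-fat mouse 5 the log2 change was 0.59 (edgeR adjusted p = 0.308). With the macrophage level as a covariate it was 1.14 (SE 0.46, edgeR adjusted p = 0.263).

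Of 11 tested genes that carry or answer the interferon gamma signal, 7 had higher means on the high-fat diet. Over all tested genes 51.4% of changes were positive. None of the 11 passed in edgeR, DESeq2 or plain limma-voom. In edgeR 4 had an unadjusted p under 0.05, all higher (5.45% of all tested genes), among them Cxcl10, Ifngr1 and Irf1. Irf1, a transcription factor that interferon gamma induces, averaged 437 ± 75.9 CPM in controls and 512 ± 15.3 CPM under high-fat feeding (edgeR adjusted p = 0.403). With the macrophage level as a covariate edgeR called 6 of the 11, all higher, where it called 1.04% of all genes higher, and without control mice 3 and 4 it called 4, where 0.823% were higher. Summed over the 12 genes, the list stood at 2217, 1667, 2918, 2930 and 1935 CPM in control mice 1 to 5 and between 2734 and 3099 CPM in high-fat mice. The diets overlapped on this sum, since control mice 3 and 4 lay within the high-fat range. Control mouse 4 had 1.80 CPM of Ido1 at a sum of 2930 CPM. High-fat mice 4 and 5, with 4.20 and 6.12 CPM of Ido1, had sums of 3099 and 2907 CPM. Gbp2, at 1024 CPM in control and 1364 CPM in high-fat mice, had the highest mean of the 12 genes and weighs most in these sums. Whether Ido1 goes with this list was not tested.

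Of 19 other genes of the tryptophan list 9 passed the expression filter. Afmid, the formamidase that releases kynurenine, and the kynurenine aminotransferase genes Kyat1 and Kyat3 passed it, with 589, 453 and 1405 counts over all 10 libraries, against 452 for Ido1. Kynu, Kmo, Haao and Qprt, which act on the branch from kynurenine to NAD, had between 9 and 37 counts each, and Tdo2, the other dioxygenase for tryptophan, had 39. Ido2, the paralog of Ido1, averaged 1.70 ± 0.776 CPM in controls and 2.64 ± 0.643 CPM under high-fat feeding (edgeR adjusted p = 0.396). Slc7a5, the large neutral amino acid transporter that carries tryptophan, was at 547 ± 78.8 and 440 ± 79.0 CPM (edgeR adjusted p = 0.343). The tryptophanyl-tRNA synthetase gene Wars was at 124 ± 20.5 and 103 ± 14.1 CPM. These were the 3 others at an unadjusted p under 0.05 in edgeR, 1 higher and 2 lower (5.45% and 6.62% of all tested genes). Of the 9, 0 passed in edgeR, DESeq2 or plain limma-voom. Limma-voom with sample weights called Slc7a5 as lower (3.06% of all genes). The kynurenine receptor Ahr was at 6.51 ± 1.36 and 5.52 ± 1.41 CPM, and its classical target Cyp1a1 had 2 counts in all.

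Entpd1 (ENSMUSG00000048120.16, chr19:40612366-40741602, plus strand) encodes CD39, which many leukocytes carry. Its level was 2.20, 0.424, 7.75, 7.55 and 1.71 CPM in control mice 1 to 5 and 0.715, 1.20, 2.32, 1.54 and 1.34 CPM in high-fat mice 1 to 5. Control mice 3 and 4 lay above every other library, while control mouse 2 had the lowest level of all 10. The means were 3.93 ± 3.46 and 1.42 ± 0.587 CPM. The log2 change came to -1.46 (SE 0.65; edgeR, adjusted p = 0.397). Without control mice 3 and 4, which were also highest in macrophage markers, the log2 change was -0.01 (SE 0.47). With the macrophage level as a covariate it turned positive, at 0.97 (SE 0.54, edgeR adjusted p = 0.423). Its nearest genes in pattern were Sla, Mapkapk3 and F11r, at distances between 0.263 and 0.292.

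Nt5e (ENSMUSG00000032420.8, chr9:88327197-88372092, plus strand) encodes CD73, which makes adenosine from AMP. Its level was 2.02, 2.12, 0.991, 1.90 and 1.71 CPM in control mice 1 to 5 and 0.774, 1.20, 0.794, 0.769 and 0.525 CPM in high-fat mice 1 to 5. High-fat mice 1, 3, 4 and 5 lay below all controls, and the overlap came from control mouse 3 and high-fat mouse 2. The means were 1.75 ± 0.450 and 0.811 ± 0.241 CPM, a 2.15-fold lower mean on the high-fat diet, from between 9 and 40 counts per library. The log2 change was -1.10 (SE 0.27) with an edgeR adjusted p of 0.172, and the DESeq2 adjusted p was 0.0403. With the macrophage level as a covariate the log2 change was -1.25 (SE 0.36, edgeR adjusted p = 0.117), and without control mice 3 and 4 it was -1.26 (SE 0.28, edgeR adjusted p = 0.0439). Control mice 3 and 4, the highest in macrophage markers, had 0.991 and 1.90 CPM of Nt5e, the lowest and the median value of the controls.

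Adora2b (ENSMUSG00000018500.2, chr11:62248984-62266453, plus strand) encodes the low-affinity adenosine receptor. Its level was 2.02, 1.96, 3.50, 1.58 and 1.88 CPM in control mice 1 to 5 and 1.85, 3.29, 2.14, 3.43 and 2.51 CPM in high-fat mice 1 to 5. The highest library was control mouse 3. High-fat mice 2 to 5 lay above the other 4 controls, and high-fat mouse 1 lay among them. The log2 change was 0.27 (SE 0.25, edgeR adjusted p = 0.734). The other 3 adenosine receptor genes, Adora1, Adora2a and Adora3, lay below the filter, with 5, 11 and 9 counts summed over the 10 libraries.

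Of 19 other genes of adenosine handling 8 were tested, and 0 passed the adjusted threshold or an unadjusted p under 0.05 in edgeR. DESeq2 and both limma-voom fits called 0 as well. Their median log2 change was -0.01. Adenosine kinase, Adk, averaged 29.8 ± 2.51 CPM in controls and 31.2 ± 4.43 CPM under high-fat feeding, adenosine deaminase, Ada, at 13.01 ± 1.622 and 12.81 ± 3.071 CPM, and the nucleoside transporter gene Slc29a1 at 99.55 ± 16.45 and 86.15 ± 13.04 CPM. Genes that answer to hypoxia, which is known to induce Nt5e and Adora2b, had lower means for 9 of 10 tested. Over all tested genes 51.4% of changes were positive. Of the 9, 3 had an unadjusted p under 0.05 in edgeR (6.62% of all tested genes were lower at that level). How these genes go with Nt5e and Adora2b was not tested. Car9, a standard hypoxia marker, was at 39.3 ± 9.38 and 22.5 ± 3.89 CPM (edgeR adjusted p = 0.108). Its diets did not overlap, as for 1.10% of all tested genes in that direction. DESeq2 called Car9 as lower, where it called 1.29% of genes lower. So did edgeR without control mice 3 and 4 (1.07% of all genes lower), with the macrophage covariate (0.781%) and with the pan-leukocyte covariate (1.73%).

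Ptgs2 (ENSMUSG00000032487.8, chr1:150100031-150108227, plus strand) encodes cyclooxygenase-2, the inducible isoenzyme, and Ptgs1 the isoenzyme that many cells express constitutively. The 250 bases upstream of the annotated start of each are shown because these enzymes catalyse the same reaction and differed widely in level. The sequences are those of RefSeq on GRCm38.p6, plus strand, 5′ to 3′, at chr1:150099781-150100030 for Ptgs2 and chr2:36230176-36230425 for Ptgs1. Capitals mark matches, on either strand, to any of 8 motifs: TATAAA (the TATA box), TGACGTCA (the cyclic AMP response element), TGANTCA (AP-1), TTGCGCAA (C/EBP), ACGTG and its variant GCGTG (hypoxia response cores), GGGCGG (the GC box) and the NF-kB motif. No matches overlapped one another in these windows.
Ptgs2: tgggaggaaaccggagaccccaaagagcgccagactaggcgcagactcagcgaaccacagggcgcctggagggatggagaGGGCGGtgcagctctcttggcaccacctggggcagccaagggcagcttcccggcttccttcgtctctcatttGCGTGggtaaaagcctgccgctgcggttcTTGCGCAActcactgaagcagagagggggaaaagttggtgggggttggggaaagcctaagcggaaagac
Ptgs1: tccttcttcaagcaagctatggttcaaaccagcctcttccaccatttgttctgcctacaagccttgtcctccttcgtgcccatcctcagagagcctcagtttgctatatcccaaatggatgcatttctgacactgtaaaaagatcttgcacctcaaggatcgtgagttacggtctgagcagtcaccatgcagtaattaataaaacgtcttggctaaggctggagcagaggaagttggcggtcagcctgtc
The Ptgs2 window held GGGCGG at positions -170 to -165 from the start, GCGTG at -98 to -94 and TTGCGCAA at -69 to -62. The Ptgs1 window held none of the 8 motifs. Among 32851 windows of the same length, 32.7% held GGGCGG, 28.2% GCGTG and 0.164% TTGCGCAA. The motif set was settled after the sequences had been seen. A match describes the letters only. GC content was 61.6% with 13 CpG dinucleotides for Ptgs2 and 48.0% with 5 for Ptgs1, against medians of 52.4% and 6 over all windows. RefSeq windows were found for 7 of the 10 members, and none was matched for Arg1, Nos2 and Ido1.

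The level of Ptgs2 was 291, 244, 183, 224 and 211 CPM in control mice 1 to 5 and 170, 193, 137, 134 and 175 CPM in high-fat mice 1 to 5. High-fat mice 1, 3, 4 and 5 lay below all controls, and high-fat mouse 2 lay above control mouse 3 alone. The means were 230 ± 40.2 and 162 ± 25.4 CPM, a 1.43-fold lower mean on the high-fat diet, with a log2 change of -0.51 (SE 0.13). The adjusted p was 0.183 in edgeR and 0.0219 in DESeq2. Every library held at least 2242 counts of Ptgs2, so that counting error was small beside the spread between mice. With the macrophage level as a covariate the log2 change was -0.55 (SE 0.19, edgeR adjusted p = 0.177), and without control mice 3 and 4 it was -0.62 (SE 0.14, edgeR adjusted p = 0.0452). Control mice 3 and 4, highest in macrophage markers, had 183 and 224 CPM of Ptgs2, and control mouse 2, with the fewest, had 244 CPM.

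Of 8 tested genes of inflammatory signalling, 3 had an unadjusted p under 0.05 in edgeR, and 0 passed. All 3 had lower means on the high-fat diet (6.62% of all tested genes). Cebpb, which encodes the C/EBP beta transcription factor, averaged 122 ± 23.4 CPM in controls and 78.4 ± 12.9 CPM under high-fat feeding (edgeR adjusted p = 0.157), Il1b at 4.63 ± 2.79 and 1.40 ± 0.458 CPM and Cxcl2 at 1.51 ± 0.401 and 0.807 ± 0.307 CPM. DESeq2 called Cebpb and Il1b as lower (1.29% of genes), and plain limma-voom called 0. In edgeR with the macrophage level as a covariate, or without control mice 3 and 4, Cebpb was called and Il1b was not. With the pan-leukocyte level both were called. These fits called 0.781%, 1.07% and 1.73% of all genes lower. The 15 macrophage markers also had lower means on the high-fat diet, with a median log2 change of -2.38. How the inflammatory genes go with these markers was not tested. Nfkbia and Tnfaip3, feedback inhibitors that NF-kB induces, had log2 changes of 0.08 and -0.03. The genes nearest to Ptgs2 in pattern were Ppp1r15a, a stress-induced phosphatase subunit, Gak and Gm13140, each at a distance of 0.331. Ppp1r15a itself averaged 159 CPM in controls and 116 CPM under high-fat feeding.

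Ptgs1 (ENSMUSG00000047250.13, chr2:36230426-36252272, plus strand) lay far below Ptgs2 in all 10 libraries. Its level was 1.54, 1.33, 3.50, 2.38 and 0.683 CPM in control mice 1 to 5 and 0.655, 1.14, 0.855, 1.30 and 0.583 CPM in high-fat mice 1 to 5. Control mice 3 and 4 were again the highest, and control mouse 5 lay among the high-fat libraries. The log2 change was -1.05 (SE 0.39, edgeR adjusted p = 0.304), from between 10 and 60 counts per library. With the macrophage level as a covariate it was 0.05 (SE 0.43), and without control mice 3 and 4 it was -0.38 (SE 0.36). Of its longest transcript, 3.58% of windows of 50 bases were found in transcripts of other genes, and its exons share 148 bases with Gm43621 on the opposite strand. The other 9 members shared no such window.

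Ptges (ENSMUSG00000050737.13, chr2:30889471-30929863, minus strand) encodes the inducible microsomal prostaglandin E synthase that acts after cyclooxygenase-2. Its level was 274, 253, 216, 222 and 272 CPM in control mice 1 to 5 and 239, 199, 190, 225 and 269 CPM in high-fat mice 1 to 5. The diets overlapped, at 247 ± 27.3 and 224 ± 31.8 CPM, and the log2 change was -0.14 (SE 0.11, edgeR adjusted p = 0.664). High-fat mouse 5, with 269 CPM, lay above control mice 2, 3 and 4. Its nearest genes in pattern were Esd, Sae1 and Aimp1, at distances between 0.181 and 0.224.

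Hpgd (ENSMUSG00000031613.9, chr8:56294585-56321043, plus strand) had 1 count in control mouse 3, 2 counts in control mouse 4 and 0 in the other 8 libraries, where up to 0.183 CPM could go unseen. No fold between the diets can be given. Ptgs2 and Ptges, which make prostaglandin E, had at least 2242 and 3111 counts in every library, and Hpgd, which inactivates it, at most 2.

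Of 22 other prostaglandin genes 12 were tested, and 0 passed in edgeR. At an unadjusted p under 0.05 there were 2 with higher and 2 with lower means on the high-fat diet (5.45% and 6.62% of all tested genes). The median log2 change was -0.01. The lower ones were Abcc4, which exports prostaglandins, at 29.1 ± 2.77 CPM in controls and 23.5 ± 1.84 CPM under high-fat feeding (edgeR adjusted p = 0.197), and Pla2g4a, which releases arachidonic acid, at 20.6 ± 2.25 and 16.8 ± 2.84 CPM. The higher ones were Ptgr1, a reductase that inactivates eicosanoids, at 3.76 ± 0.565 and 4.79 ± 0.397 CPM, and Anxa1, the glucocorticoid-induced inhibitor of phospholipase, at 484 ± 64.9 and 614 ± 75.7 CPM. DESeq2 called 1 gene, the thromboxane synthase gene Tbxas1, as lower (1.29% of genes), and plain limma-voom called 0. Limma-voom with sample weights called Anxa1 as higher and Abcc4 as lower (2.60% and 3.06% of all genes). Tbxas1 was below edgeR's filter, at 1.72 ± 1.40 and 0.370 ± 0.118 CPM. Among receptors for prostaglandin E, Ptger4 was at 2.04 ± 1.04 and 1.36 ± 0.329 CPM, and Ptger2 and Ptger3 had 4 and 2 counts in all.

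**Figure D4:**
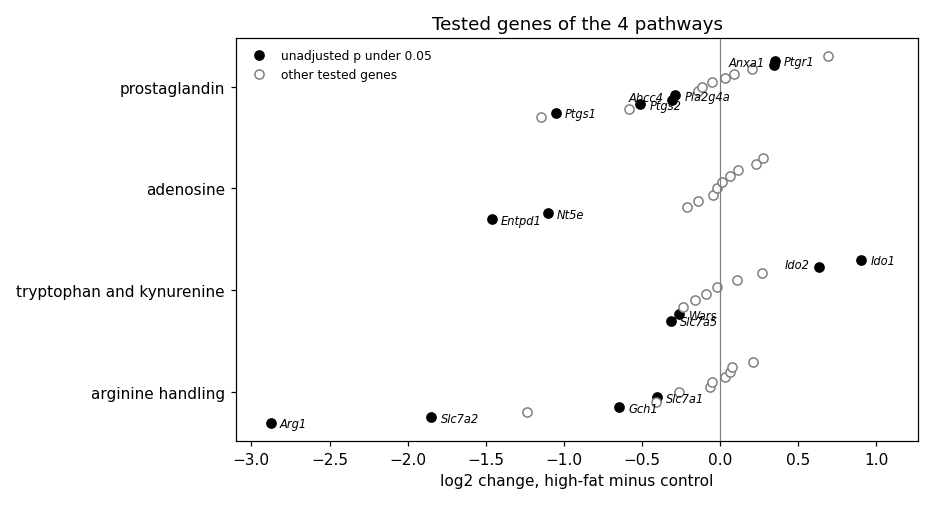
Log2 change (high-fat minus control, horizontal axis) of every tested gene of the 4 pathways, members included, 1 point per gene spread vertically by rank, with filled points and names for an unadjusted p under 0.05 in edgeR. Arg1 lies farthest to the left at -2.88 and Ido1 farthest to the right at 0.90, and none passed the adjusted threshold.

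The members differed in how their values moved once the macrophage level entered the fit. The log2 changes of Entpd1 and Ptgs1 turned from -1.46 and -1.05 to 0.97 and 0.05 once the macrophage level was a covariate, and that of Arg1 went from -2.88 to -1.55. Those of Nt5e, Ptgs2 and Ido1 were -1.25, -0.55 and 1.14 in the same fit, each at least as large as with diet alone. Their standard errors rose from 0.27, 0.13 and 0.30 to 0.36, 0.19 and 0.46. Those of Ptges, Adora2b and Nos2 went from -0.14, 0.27 and -0.06 to -0.31, 0.60 and 0.21. The covariate itself differed with diet, as all 15 markers had lower means on the high-fat diet, so the fit cannot fully separate the 2. With that covariate edgeR called 0 of the 9 members, with 5 at an unadjusted p under 0.05, where it called 0.781% of all genes lower and 1.04% higher. With the pan-leukocyte level in its place it called Arg1, Nt5e and Ptgs2 as lower, where 1.73% of all genes were called lower and 1.83% higher. Without control mice 3 and 4 it called the same 3, where 1.07% of all genes were called lower. Control mouse 3 was the lowest control for Nt5e and Ptgs2, and control mice 3 and 4 were the highest for Entpd1 and Ptgs1. Leaving them out raises the control means of Nt5e and Ptgs2 and lowers those of Entpd1 and Ptgs1 by itself. The grouping of members by the macrophage covariate was made after the values were seen, and the difference between the groups of genes was not tested.

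**Figure D5:**
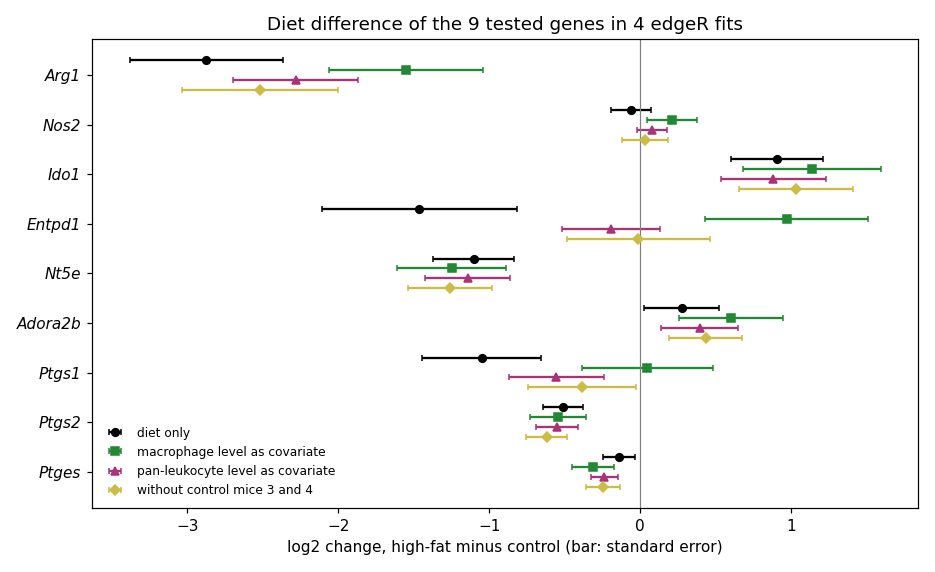
Log2 change (high-fat minus control, horizontal axis) with its standard error for the 9 tested genes in 4 edgeR fits: diet alone, with the macrophage or pan-leukocyte level as a covariate, and without control mice 3 and 4. Entpd1 runs from -1.46 to 0.97 across these fits, whereas Ptgs2 stays between -0.51 and -0.62 and Nt5e between -1.10 and -1.26. Control mice 3 and 4 were the highest controls for Entpd1 and Ptgs1, and control mouse 3 the lowest for Nt5e and Ptgs2.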

How the data were processed

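The authors deposited raw whole-number read counts per gene, with 1 column for each mouse. Tools listed in the submitters' processing notes are BWA 0.7.12, cutadapt 1.15, DESeq2 1.24.0 and FastQC 0.11.5, with GRCm38 and mm10 as builds and no roles. The program that counted reads and its strand setting were not given in the sources used here, so a gene and its antisense partner cannot be told apart. Identifiers were matched, version ignored, to GENCODE M21 (GRCm38). The test was the quasi-likelihood test of edgeR 4.0.16 (R 4.3.3; TMM, filterByExpr, robust fit, diet as the only term, two-sided), with Benjamini-Hochberg adjustment over 14337 genes and a threshold of 0.05. Standard errors are the absolute log2 change divided by the square root of F. Alternatives used DESeq2 1.42.0, limma 3.58.1, other scaling factors, filters and covariates, and left-out libraries. Log2 CPM for covariates and patterns used a prior count of 2. Nearest genes in pattern were sought among genes with a mean of at least 1 CPM. The fit was tested on simulated data. Pathway genes named are at most 5 per list with the smallest unadjusted p under 0.05, and those whose diets do not overlap. Other genes were named after their values were seen. Members and lists were chosen with earlier results of these data known. 1 gene of a pathway list is not reported here by name.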

Additional observations from a re-analysis of the deposited data

Results flagged for a closer look

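Adora2b was at 3.50 CPM in control mouse 3, with the other 4 controls between 1.58 and 2.02 CPM, a gap of 0.774 of the group's whole range. Of 19 groups of 5 libraries checked, this was the 1 in which a single library stood so far apart, and chance alone gives about 1 in 20.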

How the results depend on the processing

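Over 22 alternatives, the log2 changes of Arg1 (-3.31 to -1.55), Nt5e (-1.28 to -0.90), Ptgs2 (-0.69 to -0.41), Ptges (-0.31 to -0.09), Ido1 (0.59 to 1.14) and Adora2b (0.16 to 0.60) kept their sign. Entpd1 reversed to 0.97 and Ptgs1 to 0.0484 with the macrophage covariate. Nos2 reversed to 0.21 with that covariate, 0.0752 with the pan-leukocyte covariate, 0.0313 without control mice 3 and 4 and 0.0165 under limma-voom with sample weights, and ran from -0.16 to 0.007 when single mice were left out, positive without high-fat mouse 5. Members called numbered 0 in the edgeR test, 3 each under DESeq2, limma-voom with sample weights, the pan-leukocyte covariate and without control mice 3 and 4, and 0 to 1 leaving out single mice (Arg1 without control mouse 2). Genes called numbered 9 in the edgeR test, 326 under DESeq2 (97 higher, 229 lower), 5 under limma-voom, 811 with sample weights, 53 with no filter, 276 without control mice 3 and 4, 261 with the macrophage covariate, 510 with the pan-leukocyte covariate and 1 to 27 leaving out single mice, most without control mouse 3. With the total count as a covariate edgeR called 0, with 817 at an unadjusted p under 0.05. The causes were not tested. The difference in total counts (high-fat minus control) was -909453, and -1097171 to -696444 leaving out single mice, with exact permutation p between 0.00794 and 0.0714. It missed 0.05 whenever a high-fat mouse was left out.

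With the mouse number as a replicate block, edgeR called 16 genes and 0 members. Deviations of same-numbered libraries had correlations from -0.36 to 0.333, too few values to settle whether the numbers pair the mice. The labels state no pairing, and the column names number the high-fat mice onward from the controls. Members with few counts, such as Nt5e with 9 to 40 per library, are limited by depth.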
